A study of Homo sapiens with 4 samples.

Results

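Heat shock protein and DNAJ genes encode the molecular chaperones of the cell and their partners. The genes were taken by symbol: HSPA, HSPB, HSPH, HSP90A, DNAJA, DNAJB and DNAJC genes, with HSPD1, HSPE1 and the heat shock factors HSF1 and HSF2. The symbols matched 121 genes, of which 44 pseudogenes with a P suffix and 3 genes of the endoplasmic reticulum (ER) stress response (HSPA5, DNAJB9 and DNAJC3) were left out, so that 74 of the 57879 genes in the files were described. They comprised 12 HSP70, 3 HSP110, 2 HSP90, 8 small HSP, 4 DNAJA, 12 DNAJB and 27 DNAJC genes, the 2 genes of the mitochondrial chaperonin, the 2 heat shock factors, and HSPBP1 and HSPBAP1, which carry the HSPB letters but encode proteins that bind chaperones.

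Gene expression was profiled by RNAseq in T24, a line of human urinary bladder carcinoma cells grown in RPMI with fetal calf serum. Empty-vector (EV) control cells were compared with cells stably expressing TET1-CD, the catalytic domain of TET1, a dioxygenase that oxidizes 5-methylcytosine; there were 2 libraries of each. Both groups were made from the same parental line by lentiviral delivery and puromycin selection, and the labels call all 4 sources induced without naming an inducer. The labels do not say whether the libraries of a group came from separate cultures, so the p-values measure only the spread between these samples, which may be technical. Whether a line was a clone or a pool of cells, and which promoter drove the construct, is not given in the sources used here, and the catalytically inactive TET1-CD was not analysed here, so an effect of catalysis cannot be told apart from that of carrying the protein.

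Chaperones bind unfolded or partly folded proteins and keep them from aggregating. HSP70 proteins do so in cycles of ATP hydrolysis: DNAJ proteins deliver clients and stimulate hydrolysis through their J domain, and HSP110 proteins and BAG proteins release the nucleotide. HSP90 receives clients such as kinases and steroid receptors from HSP70, the chaperonins fold proteins inside a closed chamber, and small HSPs hold clients without ATP. HSF1 is the transcription factor of the heat shock response; as a trimer it binds heat shock elements, inverted repeats of a short GAA unit upstream of many of these genes. Tumour cells are known for high chaperone levels.

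Because HSF1 binds heat shock elements, RefSeq promoters (from 250 bases before to 50 bases after each start) were searched for them. The search was for 3 alternating units, GAANNTTCNNGAA or its reverse complement TTCNNGAANNTTC, on both strands and counting overlapping matches. Promoters were found for 63 of the 74 genes. An exact match was present in 7 of the 63 (11.1%), against 166 of the 27305 genes with a listed promoter (0.608%). With up to 1 mismatch over the 9 fixed letters, 19 of the 63 (30.2%) had a match against 7.6% of all genes. Such a match is a description of letters and not a shown binding site, and the absence of one concerns this window only.

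The stretches that hold the matches are printed for genes on which the results turn, written 5′ to 3′ on the strand of the gene, with the matched letters in capitals. They were placed on GRCh37 by an exact match. Exact elements lay upstream of HSPA8 (chr11:122932872-122933089, minus strand, -245 to -28 relative to the start) and HSP90AA1 (chr14:102553442-102553484, minus strand, -103 to -61), the most abundant of the genes.
HSPA8: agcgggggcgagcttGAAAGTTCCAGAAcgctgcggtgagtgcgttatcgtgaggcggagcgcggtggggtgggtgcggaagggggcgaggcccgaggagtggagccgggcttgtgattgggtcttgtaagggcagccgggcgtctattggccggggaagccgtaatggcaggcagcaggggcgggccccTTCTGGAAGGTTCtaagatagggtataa
HSP90AA1: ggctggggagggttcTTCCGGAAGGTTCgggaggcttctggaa
Elements with up to 1 mismatch lay in the promoters of the heat-inducible genes HSPA1A (chr6:31783199-31783241, plus strand, -121 to -79), HSPA1B (chr6:31795395-31795437, plus strand, -120 to -78) and DNAJB1 (chr19:14629234-14629301, minus strand, -92 to -25), and in that of DNAJA4 (chr15:78556788-78556874, plus strand, -116 to -30), where matches overlap.
HSPA1A: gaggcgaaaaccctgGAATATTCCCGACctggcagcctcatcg
HSPA1B: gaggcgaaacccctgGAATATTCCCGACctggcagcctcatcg
DNAJB1: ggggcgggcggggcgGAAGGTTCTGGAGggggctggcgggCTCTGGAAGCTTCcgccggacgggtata
DNAJA4: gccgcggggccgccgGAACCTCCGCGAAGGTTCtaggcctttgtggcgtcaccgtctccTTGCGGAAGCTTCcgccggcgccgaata
For contrast, exact elements were also present in HSP90AB1 (chr6:44215500-44215595, plus strand, -180 to -85) and HSPA6 (chr1:161494241-161494283, plus strand, -89 to -47), which did not pass the test described below, and in DNAJB6 (chr7:157129552-157129594, plus strand, -146 to -104), which fell.
HSP90AB1: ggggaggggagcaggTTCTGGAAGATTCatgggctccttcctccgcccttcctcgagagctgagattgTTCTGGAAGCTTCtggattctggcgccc
HSPA6: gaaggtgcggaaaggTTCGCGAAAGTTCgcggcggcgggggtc
DNAJB6: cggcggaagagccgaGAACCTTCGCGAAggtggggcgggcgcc

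The 4 libraries held 17442143 to 20295266 expected counts, which are estimated fragments per gene, and normalisation factors lay between 0.993 and 1.005. TET1, the targeted gene, stood at 5.48 and 4.8 counts scaled to library size (CPM) in EV and at 167.5 and 168.8 CPM in TET1-CD, as labelled (log2 difference 5.02, SE 0.08, adjusted p = 4.9e-10, edgeR quasi-likelihood test with Benjamini-Hochberg adjustment over all genes, as for every adjusted p that follows). The share of mitochondrial genes was 2.91% and 3.39% in EV against 2.49% and 2.73% in the TET1-CD libraries. Of 13 urothelial and epithelial markers, 8 passed the filter on low counts: keratins KRT7, KRT8 and KRT18 were abundant, whereas KRT5 was at 0 and the 4 uroplakins, which define differentiated urothelium, were at or below 0.306 CPM in every library. The summed epithelial markers were at 2394 and 2373 CPM in EV and at 2705 and 2672 CPM in TET1-CD. Most of this sum lay in KRT7, KRT8 and KRT18, of which KRT8 was slightly lower and not called (log2 -0.08, adjusted p = 0.338). Of the 8 markers 5 were called higher (62.5%), beside 10.0% of all genes tested. The mesenchymal marker VIM fell from 3162 and 3460 CPM in EV to 2505 and 2556 CPM in TET1-CD. The leukocyte marker PTPRC and the fibroblast marker DCN did not exceed 0.171 CPM. The part of these shifts in the results below was not tested, and in bulk RNA more cells expressing a gene and more RNA of it per cell cannot be told apart.

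Chaperone genes were more often higher than lower in TET1-CD cells. The 74 genes together held 1.81% and 1.88% of the EV libraries and 2.2% of each TET1-CD library. Most of this lay in HSPA8, HSP90AA1, HSP90AB1 and HSPD1, which held 1.261% and 1.325% in EV and 1.554% and 1.571% in TET1-CD. The summed share therefore mainly follows these genes and not the family at large. Of the 61 genes that passed the filter on low counts, 24 (39.3%) rose and 4 (6.6%) fell at an adjusted p under 0.05, against 10.0% higher and 9.61% lower among all 14573 genes tested; 33 did not pass. The median log2 difference of the 61 was 0.16, against 0.00 over all genes tested, and 42 of the 61 lay above 0. The shifts were mostly small: the 24 risers spanned 0.23 to 1.75 on the log2 scale with a median of 0.31, and 20 of them changed by less than 1.5-fold. Past 2-fold, the change the study required, and at an adjusted p under 0.05 were 3 genes, HSPA2 and DNAJC22 higher and DNAJC12 lower. Of all genes tested 3.77% met both in either direction. In no called gene did the EV and TET1-CD libraries overlap, but the genes were called on these same values, so this is no separate support. The counts of 24 higher and 4 lower depended on having a pair of TET1-CD libraries. Without TET1-CD replicate 1 or 2 fewer chaperone genes were called, and fewer genes were also called over all genes tested. The median log2 difference of the 61 was then 0.166 and 0.172, against -0.003 over all genes tested in each. In these fits the spread was estimated from the EV pair alone. The EV pair differed more between its libraries (a chi-square of 6.53 per gene, against 2.77 in the TET1-CD pair). The part of this in the lower counts was not tested. HSPA1A, HSPA2, HSPH1, DNAJA4, DNAJB1, DNAJC6 and DNAJC18 were called with either TET1-CD library left out. All 28 called genes had the same sign with every library left out in turn.

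**Figure D1:**
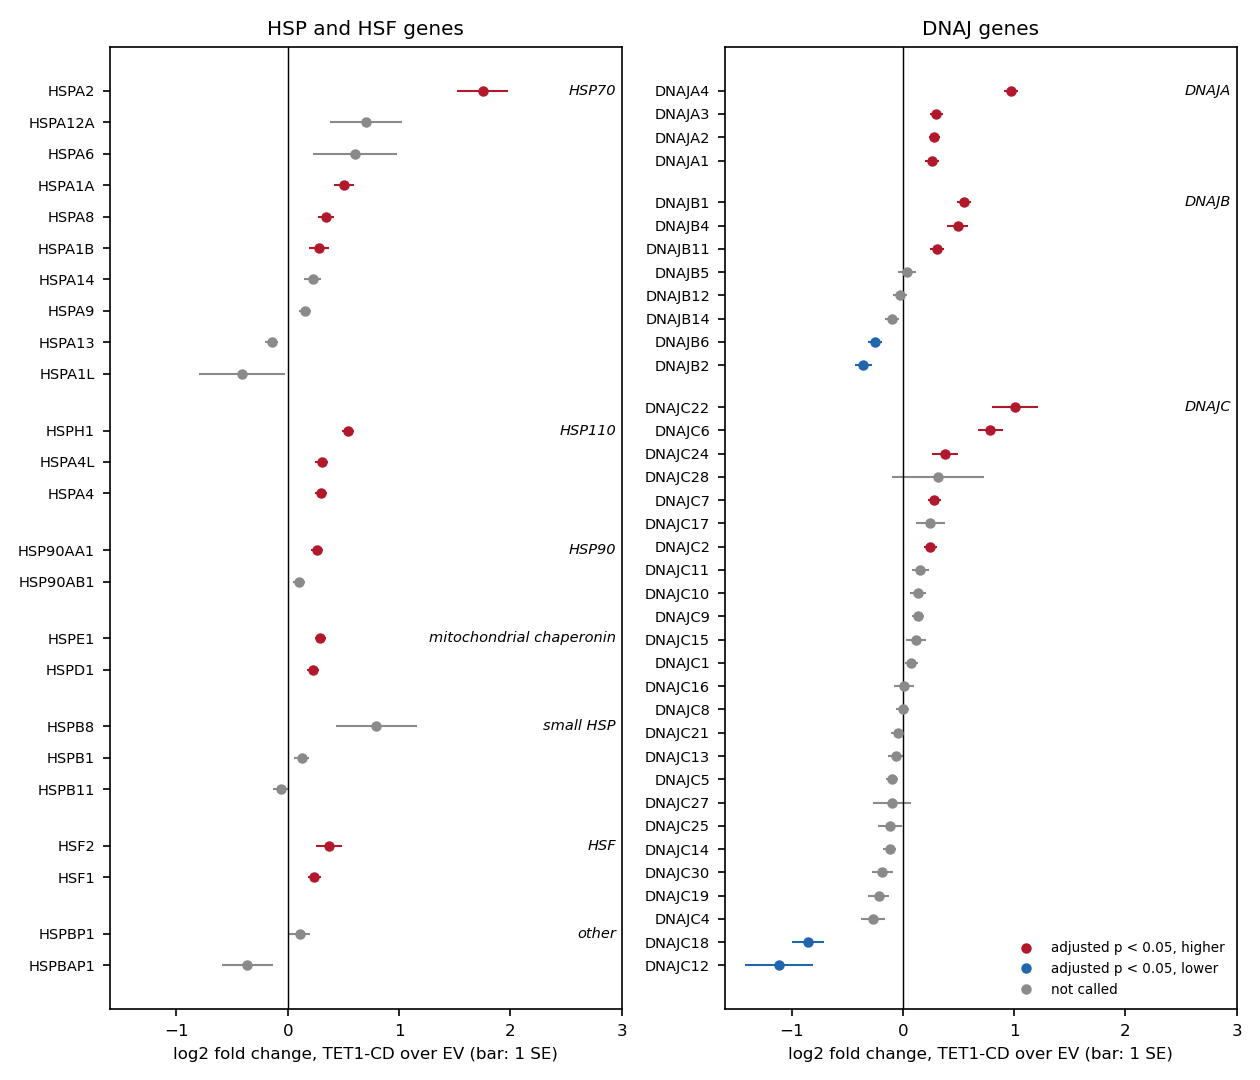
Log2 fold change of each tested chaperone gene in TET1-CD over EV cells, by class, with HSP and HSF genes on the left and DNAJ genes on the right. Points are the estimates and bars 1 SE (n = 2 libraries per group); red and blue points mark the 24 genes called higher and the 4 called lower, and the largest positive value is that of HSPA2 at 1.75.

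Levels were compared between genes as FPKM, fragments scaled to transcript length and library size, averaged over the 4 libraries. HSPA8 led with 2861 FPKM, followed by HSP90AA1 (1384), HSP90AB1 (1064), HSPB1 (548.6) and HSPD1 (545.9). The remaining genes above 100 FPKM were DNAJA1, HSPE1, HSPH1, HSPA9 and DNAJB6. Of these 10 abundant genes 6 rose and 1 fell, where 13.7% of all 768 genes tested at such levels rose and 15.1% fell. Among 33 genes from 10 to 100 FPKM 12 rose and 1 fell, against 11.2% and 10.7% of all genes in that range. Below 10 FPKM 18 genes were tested, of which 6 rose and 2 fell, against 8.7% and 8.1%. The 13 genes not tested had at most 5 counts in a library, and 7 of them were at 0 in all 4. They were HSPA7, HSPA12B, HSPB2, HSPB3, HSPB6, HSPB7, HSPB9, DNAJB3, DNAJB7, DNAJB8, DNAJB13, DNAJC5B and DNAJC5G, several of which are known for muscle or testis expression.

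**Figure D2:**
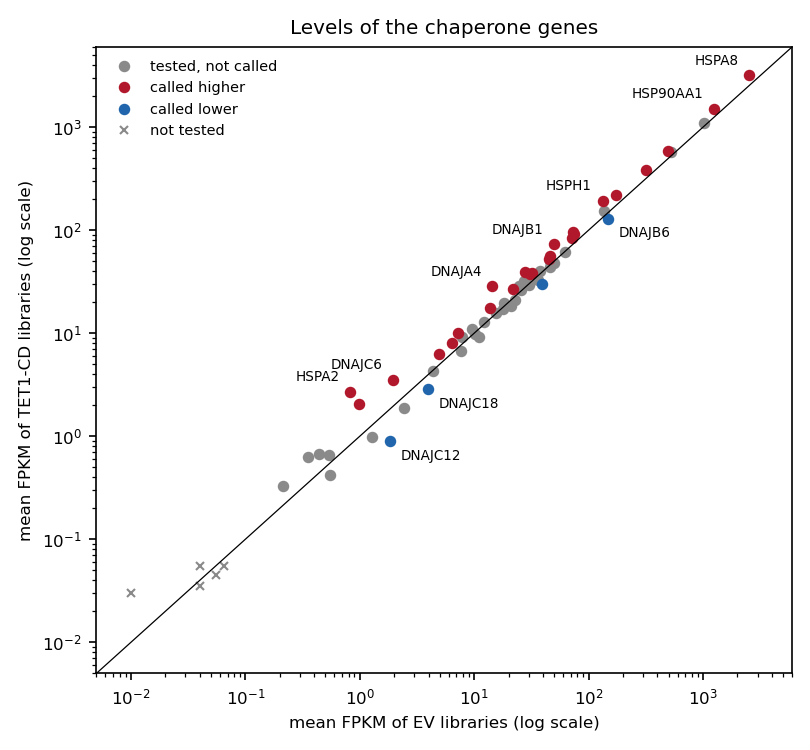
Mean FPKM of each chaperone gene in the 2 TET1-CD libraries against the 2 EV libraries, on log axes, with the line of equal levels; genes at 0 in either group are not drawn. The genes span from below 0.1 FPKM to 3208 FPKM (HSPA8 in TET1-CD), and most of the abundant ones lie slightly above the line.

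The heat shock factors were both higher. HSF1, the main activator of the response, stood at 93.2 and 89.4 CPM in EV and at 109.1 and 106.6 CPM in TET1-CD. HSF2, a related factor that can form trimers with HSF1, stood at 12.6 and 11.6 CPM in EV and at 14.5 and 16.7 CPM in TET1-CD. Both TET1-CD libraries lay above both EV libraries for each gene, with log2 differences of 0.24 (SE 0.06, adjusted p = 0.0159) for HSF1 and 0.37 (SE 0.12, adjusted p = 0.0483) for HSF2. Neither call was made by DESeq2 or without either TET1-CD library (log2 0.22 and 0.26 for HSF1, 0.47 and 0.27 for HSF2), and that of HSF2 was also lost without EV replicate 2 (log2 0.31). These are mRNA levels; HSF1 is known to be activated mainly as a protein, which was not measured.

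Among HSP70 genes, 4 of 10 tested (40.0%) rose and none fell, beside 10.0% and 9.61% of all genes tested. HSPA8, the constitutive cytosolic HSP70, stood at 4612 and 5194 CPM in EV and at 6156 and 6285 CPM in TET1-CD. The EV libraries differed from each other by more than the TET1-CD libraries did, but the groups did not overlap, and the 26.9% increase passed the test (log2 difference 0.34, SE 0.07, adjusted p = 0.00736); without TET1-CD replicate 1 or 2 it was no longer called (log2 0.36 and 0.33). HSPA1A, the classical heat-inducible HSP70, was measured at 58.3 and 72.6 CPM in EV and 94.4 and 91.5 CPM in TET1-CD (log2 0.51, SE 0.09, adjusted p = 0.00393). HSPA1B, whose product is nearly identical, was measured at 50.1 and 61.4 CPM in EV and 68.3 and 66.7 CPM in TET1-CD (log2 0.28, SE 0.09, adjusted p = 0.0496). The difference of HSPA1B depended on the EV pair: it was 0.13 and not called without EV replicate 1, and 0.43 without EV replicate 2. DESeq2 did not call it, nor was it called without TET1-CD replicate 1 or 2 (log2 0.26 and 0.3).

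HSPA1A (GRCh37 chr6:31783291-31785723, plus strand) and HSPA1B (chr6:31795512-31798031, plus strand) lie 9788 bp apart as near copies, so the counting may divide reads between them in an uncertain way. Their summed counts stood at 108.3 and 133.9 CPM in EV and at 162.7 and 158.1 CPM in TET1-CD, a log2 difference of 0.41 (SE 0.09) that also passed the test. HSPA1L, on the minus strand at chr6:31777396-31783437, overlaps HSPA1A by 147 bp; it stayed at or below 1.68 CPM. Whether counting used the strand is not given in the sources used here.

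HSPA2, an HSP70 known for its role in spermatogenesis, had the largest log2 difference of all 61 genes, at a low level. It stood at 1.63 and 2.89 CPM in EV and at 7.41 and 7.6 CPM in TET1-CD, which correspond to 33 and 50 counts against 130 and 149 (log2 1.75, SE 0.23, adjusted p = 7.78e-04). The EV libraries were the more scattered, and over all settings tried the difference ranged from 1.37 to 2.2 and was called throughout. HSPA9, the mitochondrial HSP70, showed a log2 difference of 0.16 (SE 0.05) that did not pass (adjusted p = 0.0677), although it did without EV replicate 1 (log2 0.18) and with no filter on low counts. Members that were not called are named here after their values were seen: HSPA14, a ribosome-associated HSP70, had a log2 difference of 0.22 (adjusted p = 0.0605) and HSPA13, an HSP70 of the microsomes, one of -0.14 (adjusted p = 0.127). HSPA6, a strictly inducible HSP70 of human cells, stood at 0.84 and 1.5 CPM in EV and 2.11 and 1.43 CPM in TET1-CD, where the groups overlapped (adjusted p = 0.3). HSPA12A, an outlying relative of HSP70, had a log2 difference of 0.71 (adjusted p = 0.161) at no more than 1.73 CPM.

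All of the HSP110 genes, the nucleotide exchange factors of HSP70, rose. HSPH1 was measured at 448.8 and 442.1 CPM in EV and 662.6 and 634.7 CPM in TET1-CD. The gap between the groups was many times that within them, and the 45.6% increase had an adjusted p of 1.07e-04 (log2 0.54, SE 0.05). HSPA4 rose from 362.2 and 351 CPM to 443 and 434.1 CPM (log2 0.3, SE 0.05, adjusted p = 0.00341). HSPA4L, its less abundant relative, rose from 68.9 and 64.8 CPM to 84.1 and 81.1 CPM (log2 0.3, SE 0.06, adjusted p = 0.00784). HSPA4 and HSPA4L kept log2 differences from 0.28 to 0.33 without TET1-CD replicate 1 or 2 but were not called there.

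The HSP90 genes differed in outcome. HSP90AA1, the stress-responsive isoform, stood at 4196 and 4291 CPM in EV and at 5087 and 5110 CPM in TET1-CD, a rise of 20.1% (log2 0.27, SE 0.06, adjusted p = 0.00984). HSP90AB1, the constitutive isoform, stood at 2601 and 2675 CPM in EV and 2830 and 2840 CPM in TET1-CD. Its groups did not overlap either, but the log2 difference of 0.10 (SE 0.06) did not pass the test (adjusted p = 0.219); whether the difference of HSP90AB1 was smaller than that of HSP90AA1 was not tested. Without TET1-CD replicate 1 or 2 the log2 difference of HSP90AA1 stayed at 0.27 and 0.26 and was not called. Nearly all HSP90AA1 counts, at least 99.7% in each library, were assigned to transcript ENST00000216281.

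The mitochondrial chaperonin HSPD1 and its lid HSPE1 both rose. HSPD1 was measured at 1241 and 1195 CPM in EV and 1435 and 1411 CPM in TET1-CD (log2 0.23, SE 0.05, adjusted p = 0.0168). HSPE1 was measured at 145.3 and 149.1 CPM in EV and 181.1 and 179.7 CPM in TET1-CD (log2 0.29, SE 0.05, adjusted p = 0.00408). These genes are neighbours read in opposite directions: in the files HSPE1 (chr2:198364718-198368181, plus strand) lies wholly within the span of HSPD1 (chr2:198351305-198381461, minus strand), and reads in the shared part could not be told apart without strand. Without TET1-CD replicate 1 or 2, neither was called (log2 0.21 and 0.24 for HSPD1, 0.29 and 0.30 for HSPE1). The share of counts in mitochondrial genes was lower in TET1-CD, as given above, and its part in this result was not tested.

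No small HSP gene passed the test in either direction, and 5 of the 8 were not tested. HSPB1, the abundant small HSP known as HSP27, stood at 450 and 512.9 CPM in EV and at 532.5 and 516.8 CPM in TET1-CD. The log2 difference was 0.12 (SE 0.07, adjusted p = 0.225), but this rested on the EV pair: it was 0.03 without EV replicate 1 and 0.22, which was called, without EV replicate 2. HSPB8, a small HSP that works with BAG3 in autophagy, had the largest log2 difference of the class, 0.8 (SE 0.36, adjusted p = 0.158), at no more than 1.37 CPM. HSPB11, an intraflagellar transport protein despite its symbol, had a log2 difference of -0.06.

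**Figure D3:**
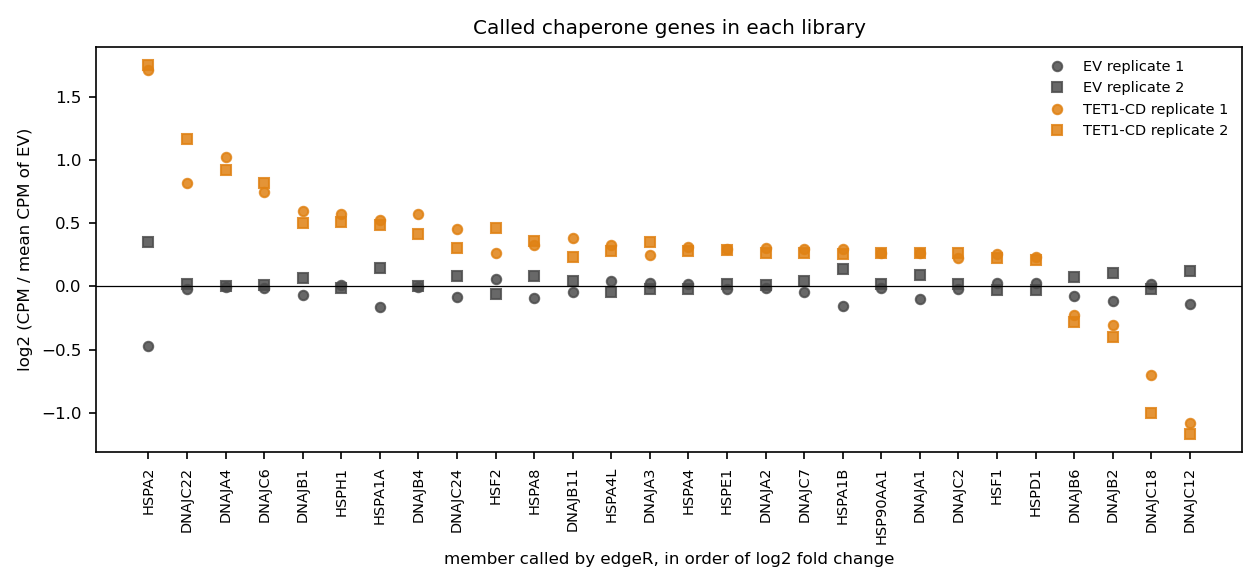
Log2 ratio of the normalised CPM in each library to the mean of the EV libraries, for the 28 called chaperone genes in order of fold change. Circles and squares are replicates 1 and 2, grey for EV and orange for TET1-CD. The groups do not overlap for any gene, but the genes were called on these same values. The EV libraries of HSPA2 (1.63 and 2.89 CPM) lie farthest apart.

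Among the DNAJ genes, all of the 4 DNAJA genes rose, whereas the DNAJB and DNAJC genes moved in both directions. Over all 37 DNAJ genes tested, 12 rose (32.4%) and 4 fell (10.8%), and the median log2 difference was 0.08. Of all genes tested 10.0% rose and 9.61% fell, so the share of DNAJ genes that fell was near that of all genes. DNAJA proteins resemble the bacterial DnaJ in domain order and work with cytosolic HSP70, except for DNAJA3, which acts in mitochondria. DNAJA4 rose most, from 41.7 and 41.9 CPM in EV to 85.1 and 78.9 CPM in TET1-CD (log2 0.97, SE 0.07, adjusted p = 9.03e-06). It had the smallest adjusted p of the family and was called with any library left out and by DESeq2 and limma-voom, but it missed the 2-fold rule. DNAJA1, the most abundant DNAJ gene, rose from 626.9 and 716.1 CPM to 804.8 and 805 CPM (log2 0.26, SE 0.07, adjusted p = 0.0216), with a log2 difference of 0.16 without EV replicate 1. DNAJA2 (log2 0.28, SE 0.05, adjusted p = 0.00541) and DNAJA3 (log2 0.3, SE 0.06, adjusted p = 0.00805) rose to a like extent. DNAJA3 was still called without TET1-CD replicate 1 (log2 0.35) but DNAJA1 and DNAJA2 were not (both at 0.26), and none was called without TET1-CD replicate 2 (log2 0.25 to 0.31 for DNAJA1, DNAJA2 and DNAJA3).

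In the DNAJB class 3 of 8 tested genes rose and 2 fell, beside 10.0% and 9.61% of all genes tested. DNAJB1, the main heat-inducible partner of HSP70, rose from 105.2 and 115.4 CPM in EV to 167 and 156 CPM in TET1-CD, an increase of 46.4% (log2 0.55, SE 0.06, adjusted p = 3.8e-04). DNAJB4, a close relative of DNAJB1, rose from 17.1 and 17.2 CPM to 25.4 and 22.8 CPM (log2 0.49, SE 0.10, adjusted p = 0.00649; log2 0.42 and no call without TET1-CD replicate 1). DNAJB11, the J protein that serves HSPA5 inside the ER, rose from 117.2 and 124.3 CPM to 157.2 and 141.7 CPM (log2 0.31, SE 0.07, adjusted p = 0.00985; log2 0.23 and no call without TET1-CD replicate 1). DNAJB5, DNAJB12 and DNAJB14 had log2 differences between -0.10 and 0.04 and did not pass. In the other direction, DNAJB6, a suppressor of polyglutamine aggregation, fell from 255.1 and 282.1 CPM to 229.9 and 221.1 CPM (log2 -0.25, SE 0.06, adjusted p = 0.0183). DNAJB2, a ubiquitin-binding J protein, fell from 82.4 and 96.4 CPM to 72.1 and 67.6 CPM (log2 -0.35, SE 0.08, adjusted p = 0.0125). Neither fall was called without TET1-CD replicate 1 or 2 (log2 -0.28 and -0.22 for DNAJB6, -0.4 and -0.31 for DNAJB2).

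DNAJB6 also differed in how its counts were divided among transcripts. The transcript ENST00000429029 made up 64% and 64.4% of the gene in EV against 55.3% and 55% in TET1-CD, while ENST00000262177 held 25.7% and 27.6% in EV and 32.5% and 34.1% in TET1-CD. The groups did not overlap for either transcript, but transcript shares were estimated from shared reads and were not tested. Nor was such a separation particular to DNAJB6. For ENST00000233893 of HSPE1 the shares were 79.5% and 80.3% in EV and 75.6% and 76% in TET1-CD. For ENST00000378372 of HSPA14 they were 52.2% and 52.5% in EV and 57% and 57.9% in TET1-CD. How often shares separate over all genes was not counted.

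DNAJC proteins share little beyond the J domain and serve special tasks, and most of them did not pass the test. Of 25 tested, 5 rose, 2 fell and 18 did not pass, with a class median of 0.01. Among all genes tested 10.0% rose and 9.61% fell, so the share of DNAJC genes that fell was no higher than that of all genes. DNAJC7, which binds both HSP70 and HSP90, rose from 119.5 and 126.9 CPM to 151.6 and 147.8 CPM (log2 0.28, SE 0.06, adjusted p = 0.00749). DNAJC2, a J protein at the ribosome exit, rose from 67.1 and 68.9 CPM to 79.5 and 81.6 CPM (log2 0.25, SE 0.06, adjusted p = 0.0166). DNAJC6, the auxilin that removes clathrin coats with HSPA8, rose from 8.3 and 8.44 CPM to 14.1 and 14.8 CPM (log2 0.79, SE 0.11, adjusted p = 0.00125). DNAJC24, a J protein of diphthamide synthesis, rose from 10.6 and 11.8 CPM to 15.3 and 13.8 CPM (log2 0.38, SE 0.12, adjusted p = 0.045). DNAJC22 was low, at 2.42 and 2.48 CPM in EV and 4.33 and 5.51 CPM in TET1-CD (log2 1.01, SE 0.21, adjusted p = 0.00834). DESeq2 did not call DNAJC2, DNAJC22 or DNAJC24. Without TET1-CD replicate 1 the calls of DNAJC2, DNAJC7 and DNAJC24 were lost (log2 0.26, 0.26 and 0.31), without TET1-CD replicate 2 those of DNAJC2, DNAJC7, DNAJC22 and DNAJC24 (log2 0.23, 0.3, 0.82 and 0.45), and without EV replicate 1 that of DNAJC24 (log2 0.29).

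The 2 DNAJC genes that fell had low counts. DNAJC18, a J protein of the ER membrane, fell from 10.2 and 9.88 CPM in EV to 6.15 and 5 CPM in TET1-CD (log2 -0.85, SE 0.15, adjusted p = 0.00316), and was called with any library left out. By mean FPKM its log2 ratio was smaller, -0.45. DNAJC12, a partner of the aromatic amino acid hydroxylases, fell from 1.98 and 2.37 CPM to 1.03 and 0.97 CPM (log2 -1.11, SE 0.31, adjusted p = 0.0304). DESeq2 did not call DNAJC12, and its call was lost without EV replicate 2 or either TET1-CD library (log2 -0.99 to -1.15). The 18 DNAJC genes that did not pass ranged from -0.27 (DNAJC4) to 0.32 (DNAJC28), the abundant DNAJC8 among them at 0.00.

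HSPBP1, a nucleotide exchange factor of HSP70, and HSPBAP1, which binds HSPB1, did not pass. HSPBP1 had a log2 difference of 0.11 (SE 0.09, adjusted p = 0.466). That of HSPBAP1 was -0.36 (SE 0.23, adjusted p = 0.31) and hung on 1 library: it was 0.02 without EV replicate 1 and -0.65, which was called, without EV replicate 2.

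The partners of these chaperones were read from lists of co-chaperones, cytosolic chaperonin and ER chaperones. Of the 31 genes on the co-chaperone list 11 rose (35.5%) and none fell, with a median log2 difference of 0.17, beside the 10.0% and 9.61% of all genes. That list also held TRAP1, an HSP90 protein, and CRYAB, a small HSP, neither of which was called. CHORDC1, an HSP90 co-chaperone, rose from 114.5 and 116.2 CPM to 190.9 and 179.6 CPM (log2 0.68, SE 0.06, adjusted p = 3.94e-05). STIP1, which links HSP70 to HSP90, rose from 377 and 369.8 CPM to 498.2 and 475.2 CPM (log2 0.38, SE 0.05, adjusted p = 0.00104). FKBP4, an immunophilin in steroid receptor complexes, rose from 163.6 and 164.7 CPM to 219.7 and 208.6 CPM (log2 0.38, SE 0.05, adjusted p = 0.00117). Without TET1-CD replicate 1 STIP1 was not called (log2 0.35).

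Of the cytosolic chaperonin and prefoldin, which fold actin and tubulin, 8 of 14 tested genes rose (57.1%) and none fell (median log2 0.22). Of all genes tested 10.0% rose and 9.61% fell. All 8 that rose were subunits of the chaperonin ring and none was a prefoldin subunit. Whether the chaperonin and prefoldin genes differed was not tested. The smallest p-values were those of CCT6A (610.3 and 622.7 CPM in EV, 786.7 and 763.1 CPM in TET1-CD, log2 0.33, adjusted p = 0.00216), CCT2 (log2 0.29, adjusted p = 0.00326) and CCT3 (log2 0.26, adjusted p = 0.00704). The shifts of CCT2 and CCT3 were not called without TET1-CD replicate 1 or 2 (log2 0.24 to 0.3), and that of CCT6A without TET1-CD replicate 1 (log2 0.31).

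In the ER, beside 10.0% higher and 9.61% lower among all genes tested, 6 of 12 chaperone genes rose and none fell (median log2 0.19). They were led by the disulfide isomerase PDIA4 (386.6 and 376.3 CPM in EV, 499.8 and 483.1 CPM in TET1-CD, log2 0.37, adjusted p = 0.00123), the ER HSP110 protein HYOU1 (log2 0.36, adjusted p = 0.00238) and SDF2L1, which assists HSPA5 with DNAJB11 (log2 0.36, adjusted p = 0.00896). None of these 3 was called without TET1-CD replicate 1 (log2 0.31 to 0.35), and SDF2L1 was called neither without TET1-CD replicate 2 (log2 0.38) nor by DESeq2. The 3 ER stress genes left out of the family by the rule did not pass: HSPA5, the ER HSP70, had a log2 difference of 0.16 (adjusted p = 0.0734), DNAJC3 of 0.14 (adjusted p = 0.119) and DNAJB9 of -0.27 (adjusted p = 0.171).

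**Figure D4:**
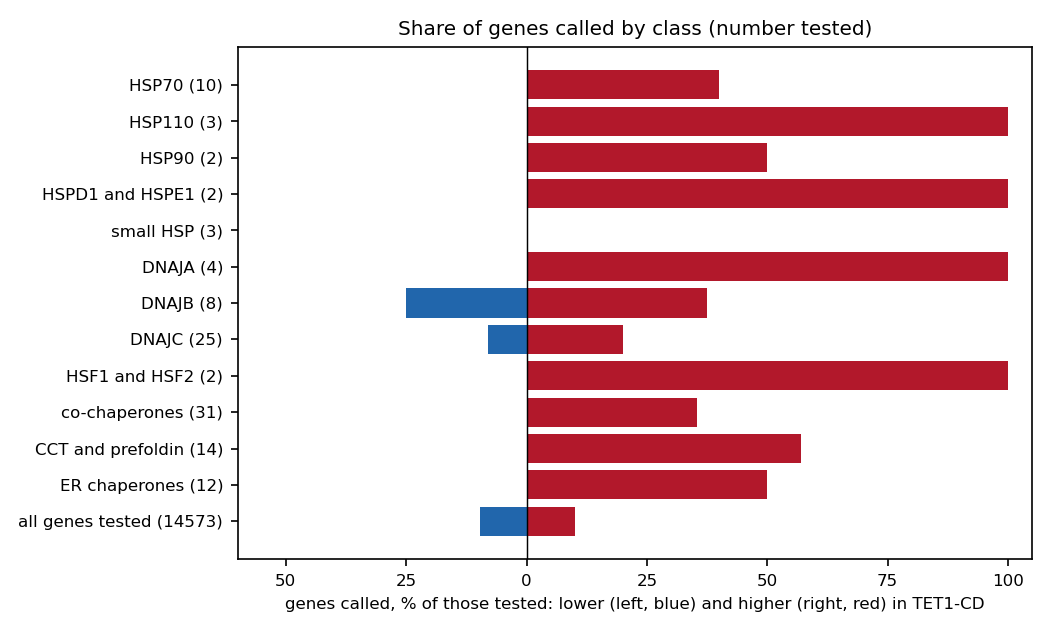
Share of genes called higher (red, right) or lower (blue, left) in TET1-CD cells, in percent of the genes tested in each class, with the number tested in brackets; bars start at 0. DNAJB and DNAJC are the classes with bars on both sides, and the bottom row gives all 14573 genes tested (10.0% and 9.61%).

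Set against the promoter letters shown above, 10 of the 21 genes called higher with a listed promoter (47.6%) had an element with up to 1 mismatch, as had 6 of 30 that did not pass (20%), 1 of 4 that fell and 2 of 8 not tested. Exact elements were present in 4 of the 21 genes called higher (HSPA8, HSP90AA1, HSPD1 and, just after its start, DNAJA1), in 2 of the 30 (HSP90AB1 and HSPA6) and in 1 of the 4 (DNAJB6). Exact elements were thus found among genes that rose, fell and did not pass. HSPH1, with an increase of 45.6%, held no such match in its listed promoters.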

How the data were processed

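RNA was extracted with Trizol, and libraries were made after poly(A) selection or rRNA removal and sequenced on an Illumina instrument. The submitters' processing notes name cutadapt 1.9.1, HISAT2 2.0.1, HTSeq 0.6.1, DESeq2 and hg19. The authors deposited expected counts and FPKM per transcript for each library; most are fractional, and the quantifier is not given in the sources used here. Fractional counts divide reads between similar transcripts and near-identical copies by estimate.

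Each gene's transcripts were added up and the sums rounded to whole counts. The 2 TET1-CD libraries were compared with the 2 EV libraries in edgeR 4.0.16 (R 4.3.3; TMM, filterByExpr, quasi-likelihood test), with Benjamini-Hochberg adjustment over 14573 genes and a call at an adjusted p under 0.05. CPM are counts scaled to TMM-normalised library sizes, and SE is the log2 difference divided by the root of F. The study itself used DESeq2 with a 2-fold change. Alternatives were DESeq2 1.42.0, limma-voom (limma 3.58.1), other scalings and filters, a replicate block, leaving out each library, summing near copies, a 2-fold rule, and the ratio of mean FPKM with a pseudocount of 0.1. The fit was tested on simulated data. Genes were named where they were on a list of core members, called, largest in their class, or among the 3 smallest p of a partner list. The members and lists were chosen with earlier results of these data known. Promoters are from RefSeq (GRCh38.p14) and were placed on GRCh37 by exact match.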

Additional observations from a re-analysis of the deposited data

How the results depend on the processing

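Over all genes, 2865 were called. With DESeq2 the count over all genes moved (1472), but those of the chaperone genes did not (18 higher and 3 lower). With the 2-fold rule all counts moved (549 in all, 2 chaperone genes higher and 1 lower). The counts also moved without either TET1-CD library, but not without either EV library. Leaving out each library in turn gave 832 to 3779 in all, 8 to 26 higher and 1 to 6 lower. Of the single genes, 8 moved by more than the replicate spread as the ratio of mean FPKM, and none of the called genes changed sign under any alternative. With the other scalings, filters and limma-voom, 23 to 26 chaperone genes were called higher and 4 lower. DESeq2 lost the calls of DNAJC2, DNAJC12, DNAJC22, DNAJC24, HSF1, HSF2 and HSPA1B; RLE scaling that of HSPA1B; and limma-voom that of HSF2.

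Same-numbered libraries did not deviate together (r = 0.007 over all genes tested, 0.05 over genes above the median CPM). With 2 libraries per group this cannot decide whether same-numbered libraries shared a culture or a run, which the labels do not give. With a replicate block 3235 genes were called in all, 25 chaperone genes higher and 4 lower, and the 28 calls made without it were among them.

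With 2 libraries per group, a library left out leaves a lone sample that is assumed to vary like the other group, and the cause of the lower counts without a TET1-CD library was not tested. The smallest called difference among the chaperone genes was 0.23 on the log2 scale, which is not a detection limit: the same fit called TOMM34, a co-chaperone, at 0.18.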
